A study of Rattus norvegicus with 10 samples.

Results

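The thick ascending limb of the loop of Henle reabsorbs sodium chloride without water, and 8 genes that carry out or regulate this transport were followed here across kidney cortex libraries: Slc12a1, Umod, Bsnd, Casr, Cldn10, Cldn16, Cldn19 and Ptger3. They were taken by exact symbol from a deposited table of 32545 genes. Each symbol had a single row, and all 8 were among the 14508 genes tested, those with a mean of at least 0.5 FPKM (fragments per kilobase of gene length, scaled to library size). The study fed rats a high-salt diet with or without oxonic acid, an inhibitor of uricase, which breaks down uric acid in rodents. The rats were wildtype males and females of the Dahl salt-sensitive strain (SS/JrHsdMcwi), an inbred line whose blood pressure climbs when it is fed salt, and which sample came from which sex is not labelled. All ate 0.4% NaCl until telemeters had been implanted at 8 to 9 weeks of age and 4 days of blood pressure had been recorded. The vehicle group (5 libraries) then ate 4% NaCl for 3 weeks, and the oxonic acid group (5 libraries) ate 4% NaCl with 2% oxonic acid for the same time. There was no group kept on the low-salt diet among the libraries, so the values compare oxonic acid with vehicle under high salt. The labels number the libraries within a group without tying each to its own rat, so p-values measure the spread between these samples, which may be technical in part.

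In the thick ascending limb, the apical cotransporter encoded by Slc12a1 (NKCC2, the target of loop diuretics) brings in sodium, potassium and chloride. Chloride leaves across the basolateral membrane through channels that need the subunit barttin (Bsnd). Potassium recycles to the lumen and makes it electrically positive, which drives cations through the tight junction, sodium by way of claudin-10 and calcium and magnesium by way of claudin-16 and claudin-19. The calcium-sensing receptor (Casr) and the prostaglandin E2 receptor EP3 (Ptger3) restrain this transport, and uromodulin (Umod) is the protein that the segment secretes into urine in bulk. In a piece of cortex, fewer cells of a type and less RNA per cell cannot be told apart, and both would lower every gene of that type together.

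None of the 8 genes passed the test between diets, and for each of them the libraries of a group differed more than the groups did: the diet accounted for at most 46.5% of the variance of log2 levels. In limma's test on log2(FPKM + 0.5) with Benjamini-Hochberg adjustment over all genes tested, 0 of 8 were called at an adjusted p under 0.05, with adjusted p from 0.420 to 0.995, and voom on recovered reads also called 0. Over all genes tested, 0% were called. At an unadjusted p under 0.05 there were 2 of the 8 genes, Bsnd and Casr, both with higher values under oxonic acid, where 9.49% of all genes had such a p (4.32% higher and 5.17% lower). The groups overlapped for all 8, and 1.91% of all genes tested had groups that did not overlap. The values were on average higher with oxonic acid in 6 of 8, with a median log2 difference of 0.20 against 0.01 over all genes tested, and 51.8% of those were higher. Without oxonic acid library 1 that median was 0.09 with 5 of 8 higher, and without vehicle library 5 it was 0.13 with 5 of 8 higher. The table held 14.5 to 18.5 M reads (M, mega) in genes per library, and 354 to 82631 reads stood behind each value of the 8 genes. Transcripts of the mitochondrial genome took 9.23% to 13.5% of those reads.

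**Figure D1:**
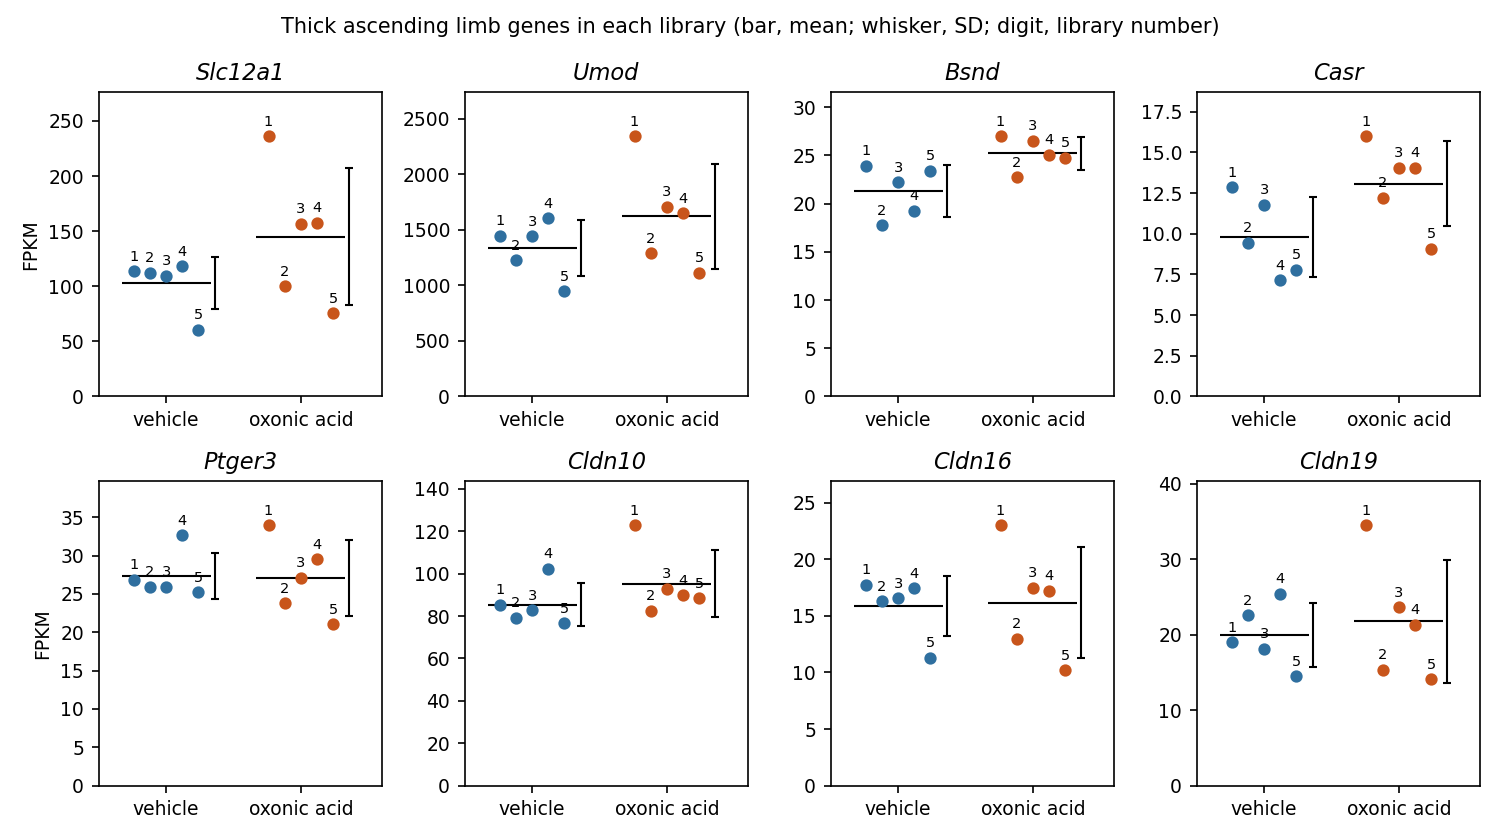
FPKM of each of the 8 thick ascending limb genes (vertical axes start at 0) in 5 vehicle and 5 oxonic acid libraries, one point per library with its number, a bar for the mean and a whisker for the SD. Oxonic acid library 1 is the highest point in all 8 panels, and the groups overlap in every panel.

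Levels per gene length ran from a mean of 1477 FPKM for Umod to 11.4 FPKM for Casr over the 10 libraries. Umod came first with 949 to 2342 FPKM over the 10 libraries, placing it 30th in the table by mean. Slc12a1 followed with 60.5 to 236 FPKM and Cldn10 with 76.6 to 123 FPKM; Slc12a1 was above Cldn10 in 8 of 10 libraries, so this pair was not separated beyond its spread. The next were Ptger3 at 21.0 to 33.9 FPKM, Bsnd at 17.8 to 27.0 FPKM, Cldn19 at 14.1 to 34.5 FPKM, Cldn16 at 10.2 to 23.0 FPKM and Casr at 7.13 to 16.0 FPKM. Their ranges overlapped from each gene to the next. Within a library, Cldn19 was above Cldn16 and Cldn16 above Casr in 10 of 10, whereas Ptger3 was above Bsnd in 9 and Bsnd above Cldn19 in 7. The segment's defining transcripts, Slc12a1 and Umod, were thus present in all 10 cortex samples.

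Slc12a1 (ENSRNOG00000005367, chromosome 3, 117421604 to 117498367 as listed by the authors; no genome build is named for these positions) had the widest range of the 8, 3.90-fold between libraries. It measured 236, 99.8, 157, 158 and 75.3 FPKM in oxonic acid libraries 1 to 5, and 114, 112, 109.7, 118 and 60.5 FPKM in vehicle libraries 1 to 5. Oxonic acid libraries 1, 3 and 4 were above every vehicle library and oxonic acid libraries 2 and 5 were below 4 of them, so the oxonic acid values lay on both sides of a tight vehicle cluster. Oxonic acid libraries averaged 145 ± 62.3 FPKM and vehicle libraries 103 ± 23.9 FPKM (SD, n = 5 each). This gave a fold of 1.34 with a 95% interval of 0.862 to 2.09 (limma adjusted p = 0.641). The group accounted for 16.4% of the variance of its log2 values. Leaving out oxonic acid library 1 took the log2 difference from 0.42 to 0.22, leaving out vehicle library 5 took it to 0.24, and leaving out oxonic acid library 5 took it to 0.63.

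Umod (ENSRNOG00000015557, chromosome 1, 189186026 to 189199376) followed the same libraries. It measured 2342, 1287, 1709, 1651 and 1115 FPKM in oxonic acid libraries 1 to 5 and 1446, 1224, 1439.6, 1603 and 949 FPKM in vehicle libraries 1 to 5. The highest and the lowest library were those of Slc12a1, and the ratio of Umod to Slc12a1 stayed between 9.92 and 15.7, lowest in oxonic acid library 1 and highest in vehicle library 5, where Slc12a1 was highest and lowest. Oxonic acid libraries averaged 1621 ± 473 FPKM and vehicle libraries 1332 ± 253 FPKM (SD, n = 5 each). This gave a fold of 1.20 with a 95% interval of 0.882 to 1.62 (limma adjusted p = 0.689). The log2 difference of Umod was 0.26, and it was 0.11 without oxonic acid library 1 and 0.14 without vehicle library 5.

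The upstream sequences of Slc12a1 and of Umod, the one of the other 7 genes with the highest r to Slc12a1 over the libraries, are printed from the RefSeq promoter table (build GRCr8, in which all 8 symbols were matched). Each is the 250 bases before the annotated start, 5′ to 3′ on the gene's strand, with any motif found in capitals. Of 2 starts listed for Slc12a1 the upstream one was taken.
Slc12a1, chr3:132859340-132859589, plus strand: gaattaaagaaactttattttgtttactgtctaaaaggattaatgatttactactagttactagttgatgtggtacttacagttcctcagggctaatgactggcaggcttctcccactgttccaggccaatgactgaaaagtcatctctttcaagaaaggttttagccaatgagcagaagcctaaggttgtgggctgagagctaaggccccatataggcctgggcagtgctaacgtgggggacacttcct
Umod, chr1:183261017-183261266, minus strand: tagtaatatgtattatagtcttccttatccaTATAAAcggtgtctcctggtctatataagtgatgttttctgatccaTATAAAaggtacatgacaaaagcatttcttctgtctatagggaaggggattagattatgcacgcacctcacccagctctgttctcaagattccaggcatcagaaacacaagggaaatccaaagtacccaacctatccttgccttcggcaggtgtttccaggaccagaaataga
On both strands of the windows of all 8 genes 3 sets of letters were searched: AAGGTCA (bound by oestrogen-related receptors), ATGCAAAT (the octamer bound by POU factors) and TATAAA (the TATA box). Umod held TATAAA at 2 places, whose first base lies 219 and 173 bases before the start, and 12.9% of the 33469 windows of this length in the table held it. AAGGTCA and ATGCAAAT, held by 3.99% and 1.56% of windows, were in none of the 8.

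Bsnd (ENSRNOG00000006543, chromosome 5, 126071846 to 126080698), the barttin subunit, departed from the pattern of Slc12a1. It measured 27.0, 22.7, 26.5, 25.1 and 24.7 FPKM in oxonic acid libraries 1 to 5 and 23.9, 17.8, 22.2, 19.3 and 23.4 FPKM in vehicle libraries 1 to 5. Vehicle libraries 2 and 4 were the low ones, and vehicle library 5, which had the least Slc12a1, lay near the middle. All 5 oxonic acid libraries were above the vehicle median and 4 were above every vehicle library. Oxonic acid libraries averaged 25.2 ± 1.68 FPKM and vehicle libraries 21.3 ± 2.69 FPKM (SD, n = 5 each). This gave a fold of 1.18 with an unadjusted 95% interval of 1.04 to 1.35. In limma's test the adjusted p was 0.420 (0.0174 before adjustment), so it did not pass. The group accounted for 46.5% of its variance, the most of the 8, and its range between libraries, 1.52-fold, was the narrowest. Bsnd is also expressed in the distal convoluted tubule and in intercalated cells. Summed markers of the distal convoluted tubule (6 listed genes, with Pvalb at 0 in all libraries but one) were lowest in vehicle libraries 2 and 4, at 166 and 193 FPKM against 276 to 383 FPKM in the other 8. Their part in the Bsnd values was not tested.

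Casr (ENSRNOG00000002265, chromosome 11, 67188630 to 67258771), which senses basolateral calcium, measured 16.0, 12.2, 14.1, 14.1 and 9.09 FPKM in oxonic acid libraries 1 to 5. In vehicle libraries 1 to 5 it measured 12.9, 9.44, 11.8, 7.13 and 7.80 FPKM. Oxonic acid libraries 1, 3 and 4 were above every vehicle library, and oxonic acid library 5 was below 3 of them. Oxonic acid libraries averaged 13.1 ± 2.60 FPKM and vehicle libraries 9.81 ± 2.48 FPKM (SD, n = 5 each). This gave a fold of 1.33 with an unadjusted 95% interval of 1.01 to 1.75. In limma's test the adjusted p was 0.518 (0.0443 before adjustment), so it did not pass. Without vehicle library 4, the lowest, the log2 difference went from 0.41 to 0.31. Casr spans, on the same strand, a listed copy of the small RNA 7SK, whose reads could be counted with it or apart. Summed markers of injured tubule (7 listed genes, among them Havcr1, Lcn2 and Spp1) were 3214 and 3390 FPKM in vehicle libraries 2 and 4 against 840 to 1851 FPKM in the other 8 libraries. Spp1 made up most of each sum, with 2864 and 2986 FPKM in vehicle libraries 2 and 4. Bsnd was lowest in these 2 libraries, in which Slc12a1 was at 112 and 118 FPKM. Casr was lowest in vehicle library 4, but vehicle library 2 was at the vehicle median, and Casr was also low in vehicle library 5 and oxonic acid library 5, whose injured tubule sums were 1450 and 1459 FPKM. The part of these markers in the values of Casr and Bsnd was not tested.

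**Figure D2:**
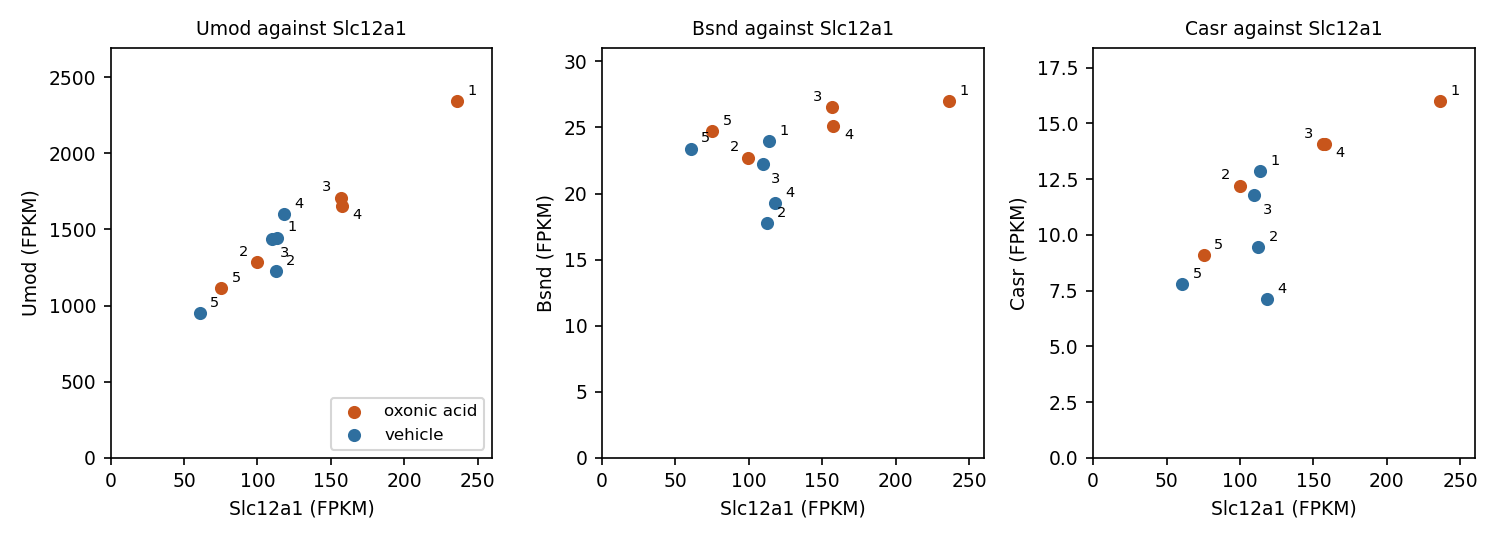
FPKM of Umod, Bsnd and Casr (vertical axes, from 0) against FPKM of Slc12a1 (horizontal axis), one point per library with its number, coloured by diet. Umod climbs with Slc12a1 from vehicle library 5 to oxonic acid library 1, while Bsnd is lowest in vehicle libraries 2 and 4 and Casr in vehicle library 4, at middle levels of Slc12a1.

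Ptger3 (ENSRNOG00000010325, chromosome 2, 263895241 to 263979698) had nearly equal means in both groups. It measured 33.9, 23.8, 27.1, 29.5 and 21.0 FPKM in oxonic acid libraries 1 to 5 and 26.8, 26.0, 25.9, 32.7 and 25.2 FPKM in vehicle libraries 1 to 5. The oxonic acid libraries reached both above and below the vehicle libraries. Oxonic acid libraries averaged 27.1 ± 5.01 FPKM and vehicle libraries 27.3 ± 3.03 FPKM (SD, n = 5 each). This gave a fold of 0.982 with a 95% interval of 0.817 to 1.18 (limma adjusted p = 0.960).

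The claudins did not move as one group either. Cldn10 (ENSRNOG00000010085, chromosome 15, 104026601 to 104115748) measured 123, 82.5, 92.8, 89.7 and 88.4 FPKM in oxonic acid libraries 1 to 5 and 85.4, 79.3, 82.8, 102 and 76.6 FPKM in vehicle libraries 1 to 5. Apart from oxonic acid library 1 and vehicle library 4 its values lay within 76.6 to 92.8 FPKM, and the fold was 1.11 with a 95% interval of 0.940 to 1.31 (limma adjusted p = 0.660). Its log2 difference was 0.15, and 0.06 without oxonic acid library 1. Cldn16 (ENSRNOG00000055138, chromosome 11, 77681794 to 77703255) measured 23.0, 13.0, 17.5, 17.2 and 10.2 FPKM in oxonic acid libraries 1 to 5 and 17.8, 16.3, 16.5, 17.4 and 11.3 FPKM in vehicle libraries 1 to 5. Its low libraries were number 5 of each group and oxonic acid library 2, as for Slc12a1, and the fold was 0.995 with a 95% interval of 0.738 to 1.34 (limma adjusted p = 0.995). Cldn19 (ENSRNOG00000007922, chromosome 5, 138300107 to 138305683), whose product pairs with claudin-16, measured 34.5, 15.3, 23.7, 21.3 and 14.1 FPKM in oxonic acid libraries 1 to 5 and 19.0, 22.6, 18.2, 25.4 and 14.5 FPKM in vehicle libraries 1 to 5. The same 3 libraries were low, and the fold was 1.05 with a 95% interval of 0.746 to 1.49 (limma adjusted p = 0.930).

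Neither the sign of Cldn16, of Cldn19 nor of Ptger3 was stable. The log2 differences were -0.01, 0.08 and -0.03 with all libraries. Without oxonic acid library 1 the value of Cldn19 was -0.10, and without vehicle library 5 it was -0.03. For Cldn16 the value was 0.06 without oxonic acid library 2, 0.14 without oxonic acid library 5, and 0.04, 0.01, 0.01 and 0.03 without vehicle libraries 1, 2, 3 and 4. For Ptger3 it was 0.02 without oxonic acid library 2, 0.06 without oxonic acid library 5 and 0.04 without vehicle library 4.

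Claudins were also compared within each library. Their values are totals per gene in whole cortex, which separate neither transcript forms nor cell types. The ratios may therefore not describe the thick ascending limb alone, and the part of other cell types in them was not tested. The ratio of Cldn10 to Cldn16 was 5.34, 6.36, 5.31, 5.21 and 8.67 in oxonic acid libraries 1 to 5. In vehicle libraries 1 to 5 it was 4.81, 4.87, 5.01, 5.87 and 6.77. Number 5 of each group was highest, the libraries with the least Slc12a1. On the log2 scale, with 0.5 FPKM added to both, the mean was 2.56 ± 0.30 with oxonic acid and 2.40 ± 0.21 with vehicle (SD, n = 5 each), a difference of 0.16. An exact permutation test over 252 arrangements, two-sided, gave p = 0.381, where 0.00794 is the smallest possible. Without oxonic acid library 5 the difference was 0.03. The ratio of Cldn19 to Cldn16 varied 1.40-fold over the 10 libraries, and that of Cldn10 to Cldn16 varied 1.80-fold. The ratio of Cldn16 to Slc12a1 was 0.0973 to 0.135 with oxonic acid and 0.145 to 0.187 with vehicle, so its groups did not overlap. In the ratios of the other genes of the set to Slc12a1 the groups overlapped. The ratio of Cldn16 to Slc12a1 was picked out after its values were seen, and its difference between diets was not tested.

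Across the 8 genes, libraries differed in a repeated way. Oxonic acid library 1 was the highest of the 10 for 8 of 8 genes, and oxonic acid libraries 3 and 4 were above the median of the 10 libraries for 8 of 8. Vehicle library 5 was the lowest for 3 genes (Slc12a1, Umod and Cldn10) and among the lowest 3 for 7. Oxonic acid library 5 was the lowest for another 3 (Cldn16, Cldn19 and Ptger3). The median level of the 8 genes, as a log2 value minus the mean of the 10 libraries, was 0.52 in oxonic acid library 1, 0.21 and 0.13 in oxonic acid libraries 3 and 4, -0.17 and -0.36 in oxonic acid libraries 2 and 5, -0.11 to 0.16 in vehicle libraries 1 to 4 and -0.45 in vehicle library 5. Within the oxonic acid group the range was 3.14-fold for Slc12a1, 2.25-fold for Cldn16 and 2.44-fold for Cldn19, and within the vehicle group it was 1.95-fold, 1.57-fold and 1.75-fold. For Bsnd and Casr the vehicle group had the wider range, 1.35-fold and 1.81-fold against 1.19-fold and 1.76-fold.

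Markers of neighbouring segments were not level between these libraries. Summed markers of the straight proximal tubule, which lies in the outer stripe of the medulla and in medullary rays beside the thick ascending limb (4 listed genes, led by the amino acid transporter Slc7a13), were 1661 FPKM in oxonic acid library 1 and 259 FPKM in vehicle library 5, the highest and lowest of 10, and 757 to 1182 FPKM in the other 8. They ranged from 757 to 1661 FPKM with oxonic acid and from 259 to 974 FPKM with vehicle. The 4 measured genes of the inner medulla list summed to 252 FPKM in oxonic acid library 3 and 205 FPKM in oxonic acid library 1, with 56.6 to 144 FPKM elsewhere. The defining gene of that list, the urea transporter Slc14a2 (of its 2 rows in the table, that with the higher mean), was at 16.0 FPKM in oxonic acid library 3 and at 0 to 0.505 FPKM in the other 9. The 6 markers of the proximal tubule summed to 2797 to 3602 FPKM with oxonic acid and 2597 to 3520 FPKM with vehicle. Principal cell markers (6 genes) summed to 335 to 453 FPKM with oxonic acid and 252 to 346 FPKM with vehicle, and macrophage markers (7 genes) to 124 to 161 FPKM and 159 to 213 FPKM. Intercalated cell markers summed to 128 to 197 FPKM over the 10 libraries, podocyte markers to 77.8 to 115 FPKM, endothelial markers to 43.3 to 57.3 FPKM and macula densa markers to 3.18 to 5.22 FPKM, with Pappa2 under the filter. The part of these other cell types in the values of the 8 genes was not tested.

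**Figure D3:**
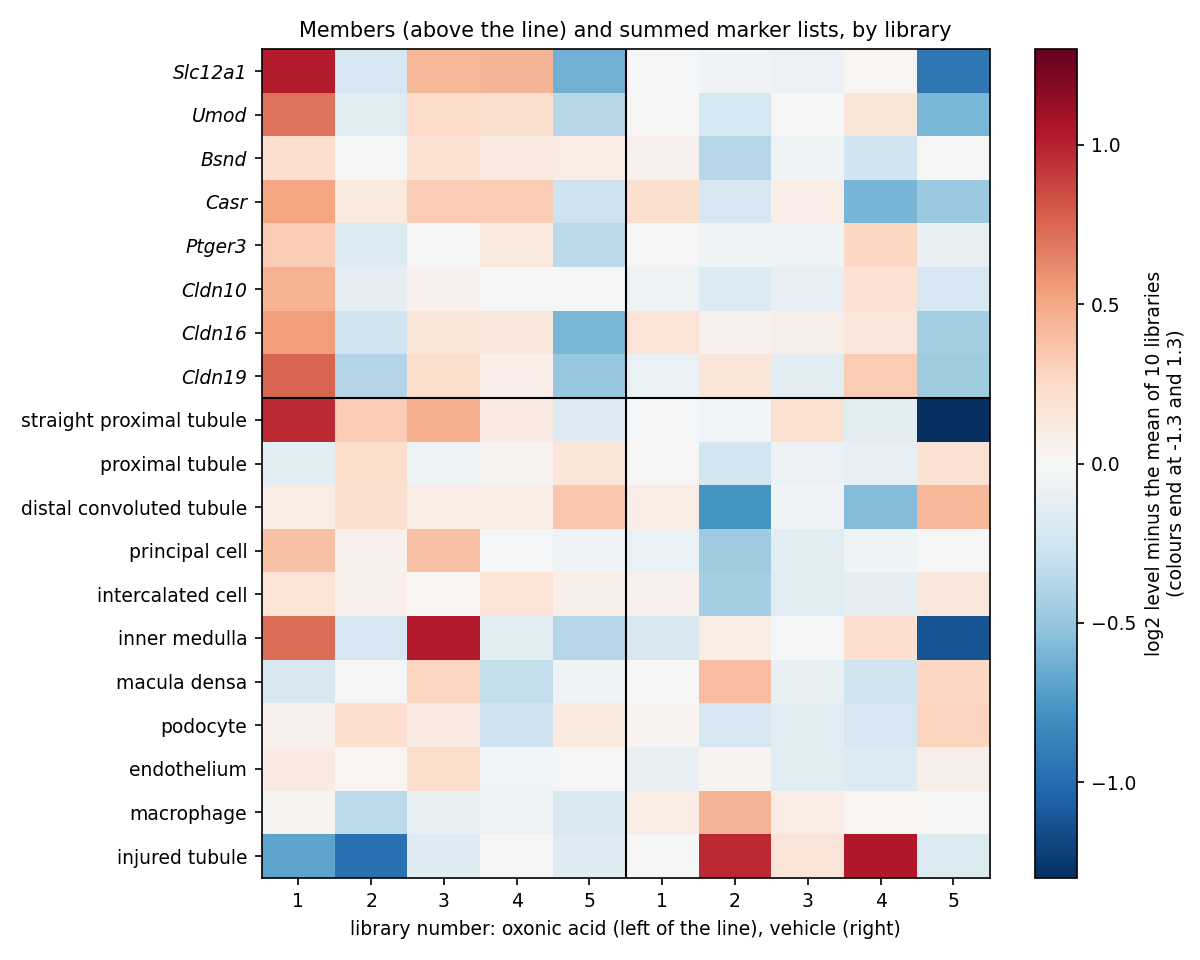
Log2 level minus the mean of the 10 libraries (colour, red higher and blue lower) for the 8 genes, above the horizontal line, and for the summed FPKM of 11 marker lists, below it, in each library (columns). Oxonic acid library 1 is red for all 8 genes and for the straight proximal tubule list, vehicle library 5 is blue for that list and for 7 of the 8 genes, and vehicle libraries 2 and 4 are red for the injured tubule list.

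The sample descriptions carry numbers that fall into 3 runs, which the labels do not call batches. The first holds 3 oxonic acid libraries and 0 vehicle libraries (oxonic acid libraries 1 to 3), the second holds 1 and 3, and the third holds 1 and 2. Within the second run the log2 difference was above 0 for all 8 genes, from 0.03 for Cldn16 to 0.49 for Slc12a1. Within the third run it was 0.22 for Bsnd and 0.27 for Casr, and below 0 for the other 6, with -0.17 for Slc12a1, -0.15 for Umod, -0.0026 for Cldn10 and -0.44, -0.43 and -0.44 for Cldn16, Cldn19 and Ptger3. Bsnd and Casr were thus the pair with higher values under oxonic acid in both runs, each run having a single oxonic acid library. A model with a term for the runs gave 0.18 for Slc12a1, 0.08 for Umod, 0.06 for Cldn10 and -0.15 for Cldn19. In that model 0 of the 8 genes had an unadjusted p under 0.05 in limma's test, with 0.101 for Bsnd, 0.0539 for Casr, 0.595 for Slc12a1 and 0.770 for Umod.

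Other genes of thick ascending limb transport were read from lists of 44 further symbols, of which 43 were in the table and 41 were tested. Of these 41, 0 passed in limma's test, as did 0% of all genes, and 10 had an unadjusted p under 0.05, all with higher values under oxonic acid, where 4.32% of all genes tested did. Values were higher in 35 and lower in 6, where 51.8% of all genes tested were higher, with a median log2 difference of 0.14. These counts use all libraries and did not hold within the third run, which has a single oxonic acid library. There about as many of the 41 lay below 0 as above, from -0.29 for Atp1b1 to 0.64 for Klhl3. Among genes named below, a term for the runs took Kcnj1 from 0.35 to 0.06 and Egf from 0.45 to 0.24. Klhl3 and Wnk1, at 0.49 and 0.30, were 0.49 and 0.33 with it. Under that term Stk39 had an unadjusted p of 0.0347 in limma's test. Kcnj10, Klhl3, Wnk1, Gcgr, Adcy6, Egf and Tmem72 had 0.0506 to 0.408. In the same libraries macrophage markers were lower in 7 of 7 genes and markers of principal cells higher in 6 of 6 (median log2 difference 0.33). Tested markers were also higher in 4 of 5 for the distal convoluted tubule (0.35), 4 of 4 for the inner medulla (0.36) and 3 of 4 for podocytes (0.26). Endothelium had 3 of 3 higher (0.11), straight proximal tubule 3 of 4 (0.20), proximal tubule 5 of 6 (0.07), intercalated cells 4 of 6 (0.06) and macula densa 1 of 3 (-0.06). In each list 0 passed. Injured tubule markers had lower values in 6 of 7 genes, with a median log2 difference of -0.59 and 0 passing. Each of those 6 had an unadjusted p under 0.05 in limma's test, where 5.17% of all genes tested were lower with such a p. The list, mostly Spp1, summed to 840 to 1637 FPKM with oxonic acid and 1450 to 3390 FPKM with vehicle. The part of all these markers in the values of the thick ascending limb genes was not tested. The genes named are among the 3 of each list with the smallest unadjusted p, so their separation adds no support.

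Among 8 channels and pump subunits, 6 had higher values and 1 an unadjusted p under 0.05. Over all genes tested 51.8% had higher values, and 4.32% had higher values with such a p. The same shares apply to the counts of the lists that follow. Kcnj10, a basolateral potassium channel, averaged 13.2 ± 1.36 FPKM under oxonic acid against 9.56 ± 2.87 FPKM under vehicle (SD, n = 5 each). It did not pass (limma adjusted p = 0.473) and had its lowest values, 8.16 and 5.27 FPKM, in vehicle libraries 2 and 4, as for Bsnd. Kcnj1, the apical channel that recycles potassium (ROMK), measured 82.9 ± 27.7 and 62.5 ± 6.32 FPKM (limma adjusted p = 0.567), with 125 FPKM in oxonic acid library 1. The log2 difference of Kcnj1 was 0.35, and 0.19 without that library, and that of Kcnj10 was 0.49, and 0.31 without vehicle library 4.

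The kinases and trafficking factors held 3 genes with an unadjusted p under 0.05 among 11 tested, and 9 had higher values. Stk39, the kinase SPAK that phosphorylates the cotransporter, measured 10.9, 8.62, 10.5, 10.4 and 8.87 FPKM in oxonic acid libraries 1 to 5 and 7.46, 6.72, 8.48, 7.37 and 8.38 FPKM in vehicle libraries 1 to 5. The groups did not overlap, and the log2 difference was 0.34 (SE 0.09, limma adjusted p = 0.333). Klhl3, the adaptor that marks WNK kinases for degradation, and the kinase gene Wnk1 had log2 differences of 0.49 and 0.30 (limma adjusted p of 0.411 and 0.484). Both were lowest in vehicle libraries 2 and 4, Klhl3 at 4.17 and 4.41 FPKM and Wnk1 at 28.7 and 25.3 FPKM. Summed markers of the distal convoluted tubule were lowest in the same libraries, and their part in these values was not tested. Wnk3 was under the filter. Of the genes for hormone signalling, 8 of 9 had higher values, with log2 differences of 0.32 for the glucagon receptor Gcgr, 0.17 for the adenylyl cyclase Adcy6 and 0.33 for the vasopressin receptor Avpr2 (limma adjusted p of 0.459, 0.491 and 0.562). The value of Avpr2 was -0.04 in a model with a term for the runs. The tight junction list had 3 of 4 higher and 0 with an unadjusted p under 0.05, with log2 differences of 0.41 for Tmem207, which binds claudin-16, 0.17 for occludin (Ocln) and 0.14 for Tjp1 (limma adjusted p of 0.560 to 0.639). Tmem207 was at 0.25 without oxonic acid library 1 and Tjp1 at 0.05 without vehicle library 4. Cldn14, the claudin that Casr signalling induces, was under the filter at 0.0388 to 0.394 FPKM.

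Of the other genes enriched in the segment, 9 of 9 had higher values, 4 of them with an unadjusted p under 0.05. Within the third run Pou3f3, Irx1, Irx2, Ppp1r1a and Esrrg had log2 differences below 0, from -0.22 to -0.03, and the rest of the list lay above 0. Egf, the growth factor precursor made in the thick ascending limb and distal convoluted tubule, measured 38.8 ± 6.39 FPKM with oxonic acid against 28.2 ± 4.77 FPKM in vehicle libraries (SD, n = 5 each, limma adjusted p = 0.388), and Tmem72 had a log2 difference of 0.49 (limma adjusted p = 0.396).

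**Figure D4:**
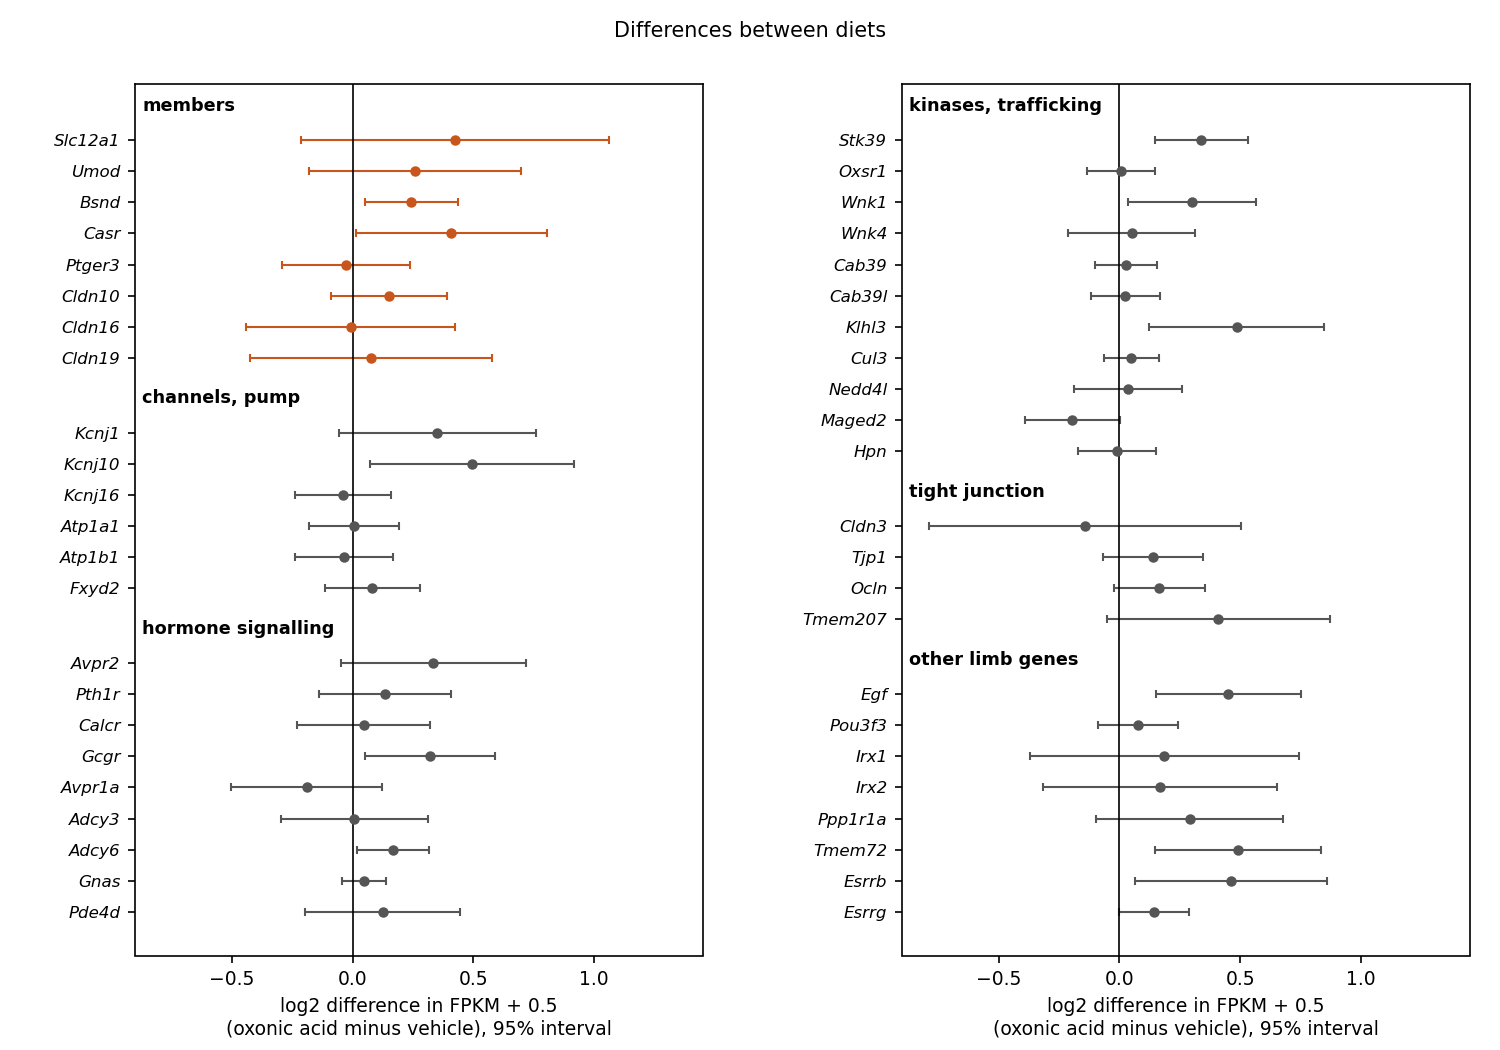
Log2 difference in FPKM + 0.5, oxonic acid minus vehicle (horizontal axis), with unadjusted 95% intervals, for the 8 genes (orange) and other genes of thick ascending limb transport and signalling (grey). The interval of Slc12a1 crosses 0, and those of Bsnd and Casr lie just above 0.

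The genes whose library pattern was most like that of Slc12a1 were ranked by Pearson's r over the 10 libraries, among 11807 genes with a mean of at least 1 FPKM. The 8 genes themselves were left out of these. The first 5 were Sim2 (r = 0.99, Spearman's rho = 0.94), Foxc1 (0.97 and 0.90), Pcsk6 (0.97 and 0.76), Mrrf (0.96 and 0.84) and Pou3f3 (0.96 and 0.89). Sim2, Foxc1 and Pou3f3 encode transcription factors, Pcsk6 a proprotein convertase and Mrrf a mitochondrial ribosome recycling factor. Without oxonic acid library 1 and vehicle library 5, the 2 farthest from the median of Slc12a1, r was 0.97, 0.92, 0.91, 0.93 and 0.96 in the same order. These values describe a ranking over a whole table, in which points share library scaling and depth, so no p is given. Sim2 ran from 1.95 FPKM in vehicle library 5 to 11.1 FPKM in oxonic acid library 1 and Pcsk6 from 0.463 to 6.87 FPKM between the same libraries. For the other 7 genes of the set, r with Slc12a1 was 0.97 for Umod (0.968, above Mrrf and Pou3f3), 0.91 for Cldn16, 0.89 for Cldn19, 0.77 for Cldn10, 0.75 for Ptger3, 0.74 for Casr and 0.32 for Bsnd. Without the same 2 libraries those of Umod, Cldn16, Cldn19 and Ptger3 were 0.89, 0.82, 0.76 and 0.73, while those of Cldn10, Casr and Bsnd were 0.29, 0.51 and 0.20, so for Cldn10 the likeness rested on those libraries.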

How the data were processed

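Kidney cortex RNA was measured in 10 libraries, grouped by the treatment label, with table columns matched to samples by library name. Per the submitters' processing notes reads went through fastp and HISAT2 (2.0.5), with StringTie (1.3.3b) and featureCounts (1.5.0-p3) also named. The sources used here name no genome build, annotation or strand setting. The values deposited by the authors are FPKM, and FPKM times gene length gave whole reads (100% of values within 0.01 of a whole read). FPKM measures relative abundance and takes no account of how many reads stand behind a value. Genes with a mean of at least 0.5 FPKM were tested on log2(FPKM + 0.5) with limma 3.58.1 (lmFit, eBayes with trend) in R 4.3.3. Tests were two-sided, p-values were adjusted by Benjamini-Hochberg over all genes tested, and 0.05 was the threshold. A fold is 2 to the power of the log2 difference, with a 95% interval, and understates changes of low genes. Means and SD are of FPKM. The procedure was tested on simulated data first. No 2 libraries agreed within sampling noise (lowest chi-square per degree of freedom 4.79). Alternatives were other pseudocounts, filters, scalings, voom, array weights, blocks and leaving out libraries. Other cell types were read from 11 marker lists as summed FPKM. The genes, lists and tests were chosen with earlier results of these data known. Named from each list of other thick ascending limb genes were the 3 with the smallest unadjusted p, and as most like Slc12a1 the 5 with the highest r, leaving out the 8 genes themselves and provisional locus names. Some genes that this rule named are not reported here. Figures were drawn with matplotlib 3.10.9.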

Additional observations from a re-analysis of the deposited data

Results flagged for a closer look

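In 6 of 40 groups of 5 libraries examined, 1 library stood far from the rest of its group, its gap to the nearest library being over 0.71 of the group's range. Chance would give this in about 1 in 20 groups that were independent and normally distributed. These groups reuse the same libraries over measures that vary together, so 6 of 40 cannot be set against that rate. Vehicle library 5 stood below the other vehicle libraries for Slc12a1, at 60.5 FPKM against 109.7 FPKM in the nearest, for Cldn16, at 11.3 against 16.3 FPKM, and for the summed straight proximal tubule markers, at 259 against 771 FPKM. Oxonic acid library 1 stood above its group for Cldn10, at 123 FPKM against 92.8 FPKM. Vehicle library 4 stood above its group for Ptger3, at 32.7 FPKM against 26.8 FPKM. Vehicle library 2 stood above its group for the summed macrophage markers, at 213 FPKM against 168 FPKM.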

How the results depend on the processing

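Over 21 alternatives, 0 of 168 values of the 8 genes were called and 154 kept their direction. The other 14 belonged to Cldn16, Cldn19 and Ptger3. The log2 difference of Ptger3 was 0.0084 with array weights and 0.033 without oxonic acid library 3 and vehicle library 4 together (chosen after seeing the data). A term for the sample-number runs gave -0.15 for Cldn19 and -0.038 for Avpr2. On leaving out each library in turn, the differences ran from -0.14 to 0.14 for Cldn16, from -0.10 to 0.21 for Cldn19 and from -0.11 to 0.058 for Ptger3. The cause was not tested. The median of the 8 genes stayed between 0.07 and 0.24, with 5 to 8 of them higher. Over all genes, limma called 0 or 1: array weights gave 1 (Tap2) and leaving out vehicle library 1 gave 1 (SNORA3), both named after their values were seen, and the other 19 alternatives gave 0, against 1377 genes at an unadjusted p under 0.05 with all libraries. The ratio of Cldn10 to Cldn16 kept its direction in 15 of 15 alternatives, with differences of 0.03 to 0.27. No alternative gave an exact permutation p under 0.05. Permutation within the runs gave p = 0.0833, the smallest it can give. Neither it nor the replicate block has enough arrangements for a p under 0.05, so their misses were fixed in advance.

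With the replicate number as a block (replicate block), 0 genes were called and the median of the 8 genes was 0.20. Unadjusted p under the block was 0.00556 for Bsnd, 0.00842 for Casr, 0.0272 for Slc12a1 and 0.0413 for Umod in limma, with adjusted p of 0.357 to 0.480. With a term for the runs instead, the unadjusted p of the same genes was 0.101, 0.0539, 0.595 and 0.770, so the term moved them the other way. With the replicate block the exact permutation p of the claudin ratio was 0.25, where a p under 0.05 was not possible. The labels do not say that the numbers pair the samples. Same-numbered libraries had correlations of -0.0132 to 0.203 between their deviations from the group means, and 1 of 5 correlated best with its own number. So few correlations cannot settle whether samples were paired.

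At least 354 reads stood behind every value of the 8 genes.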
